A study of Mus musculus with 2 samples.

Results

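The clustered protocadherin genes were followed in open-chromatin maps of the mouse embryonic limb. They were chosen by name: every protein-coding gene of the GENCODE M21 annotation of mm10 on chromosome 18 whose symbol begins with Pcdha, Pcdhb or Pcdhg. This gave 57 of 21938 protein-coding genes, with 14 in Pcdha, 22 in Pcdhb and 21 in Pcdhg. DNase-seq, which sequences the ends left where DNase I has cut open chromatin, was done on limb tissue of strain B6NCrl at 11.5 days of embryonic development, from pooled male and female embryos. The labels give 1 group with 2 biological replicates from separate biosamples, each with 1 technical replicate, and no treatment or mutation. The deposited lists for each library hold peaks of 150 bp with a signal value and wider hotspots with a −log10 q value.

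Clustered protocadherins are cell-surface proteins of the cadherin superfamily that bind copies of themselves on neighbouring cells. They are known above all from neurons, where each cell uses its own small set of members and so acquires a surface identity. In Pcdha and Pcdhg each member has its own promoter and a large variable exon, which is spliced to constant exons shared by the whole cluster, whereas a Pcdhb member consists of its variable exon alone. Most members are chosen at random by single cells, and the C-type members (Pcdhac1, Pcdhac2, Pcdhgc3, Pcdhgc4 and Pcdhgc5) follow separate rules. CTCF and cohesin bind at many of the promoters and at distant enhancers and bring them together. All members lie on the plus strand, in the order Pcdha, Pcdhb, Pcdhg.

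The 2 libraries held 174611 and 167550 peaks and 151790 and 144013 hotspots. Read depth is unknown because the lists hold no read counts. With 2 libraries of 1 group no test was possible, members are not replicates, and every count is a description set beside the same count over all genes. The tissue label was set against promoter peaks of marker genes. All 12 limb mesenchyme markers had overlapping promoter peaks in both libraries, as did 6 of 9 surface ectoderm markers, 11 of 12 neuronal markers, 4 of 6 neural crest and Schwann cell markers, 2 of 6 endothelial markers and 0 of 6 blood markers. Of all protein-coding genes 68.1% had them. The surface ectoderm share and the neural crest and Schwann cell share, both 66.7%, were near that background. The neuronal share of 91.7% was above it, so these counts do not single out limb mesenchyme. In bulk tissue a site open in few cells and a site weakly open in many cells cannot be told apart.

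A promoter peak in both libraries was present at 29 of the 57 members. A peak of any kind lay within 1 kb of an annotated transcript start for 36 of 57 members in replicate 1 and for 34 in replicate 2, where 69.7% and 70.1% of all protein-coding genes had one. Overlapping peaks of both libraries, called a shared peak from here on, thus marked 50.9% of members, against 68.1% of all protein-coding genes and 81.6% of the 456 other genes of chromosome 18. Every annotated start was searched, with 93513 starts for the 21938 genes and from 1 to 5 per member. A gene with more starts has more window, also for its strongest promoter peak. With the 5′ end of each gene only, the member count stayed at 29, and the share of all genes was not computed. A peak in 1 library only was present at 12 members or 21.1%, against 2.99% of all genes. These were 7 members in replicate 1 and 5 in replicate 2, where 1.33% and 1.67% of all genes had such a peak. The remaining 16 members or 28.1% had a peak in neither library, against 28.6% of all genes. The share of members with no peak was thus near the background, the shared class was below it and the class with a peak in 1 library only was above it. Hotspots gave the same member counts of 36, 34 and 29, beside 69.9%, 70.3% and 68.5% of all genes.

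**Figure D1:**
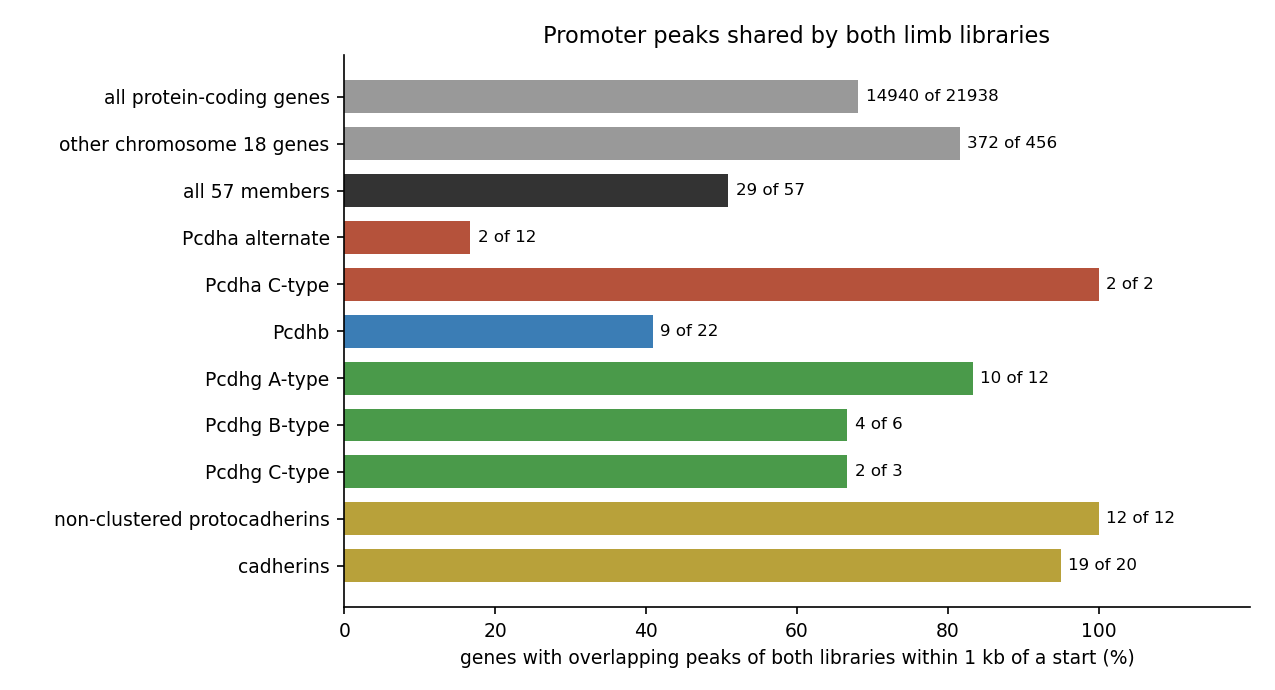
Percentage of genes with overlapping peaks of both libraries within 1 kb of a start (x axis from 0), for all protein-coding genes, the member groups and related families, with the counts printed at the bars. Alternate Pcdha members stand at 2 of 12 and Pcdhb at 9 of 22, below the 68.1% of all genes, while 10 of 12 Pcdhg A-type members had a shared peak.

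The clusters differed in how many promoters were open. A shared peak was found at 4 of 14 Pcdha members, 9 of 22 Pcdhb members and 16 of 21 Pcdhg members. These are 28.6%, 40.9% and 76.2%, beside 68.1% of all genes and 81.6% of the other genes of chromosome 18. The Pcdhg share lay between those 2 backgrounds, and the other 2 shares lay below both. Within Pcdha these were both C-type members and 2 of 12 alternate members, the name for those upstream of Pcdhac1. Within Pcdhg they were 10 of 12 A-type, 4 of 6 B-type and 2 of 3 C-type members. When only peaks above the median signal of their own list were used, 9 of 57 members or 15.8% kept a shared peak, against 63.7% of all genes. Those 9 were made up of 4 of the 5 C-type members and 5 Pcdhg A-type and B-type members, with 0 of 22 Pcdhb and no alternate Pcdha members.

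The alternate Pcdha members were the group with the lowest share of shared peaks. Replicate 1 had a promoter peak at 4 of these 12 members and replicate 2 at 3. Pcdha12, the last of the row (start at chr18:37020149), had signals of 27 and 21, which stood at percentiles 8.03 and 10.7 among all peaks of the libraries. The percentile is the share of peaks with a lower signal, with ties split evenly. Pcdha4, the only other alternate member with a shared peak, had signals of 22 and 14. Pcdha2 with a signal of 23 and Pcdha11 with 27 had a peak in replicate 1 only, and Pcdha3 with 14 had one in replicate 2 only. No peak was called at Pcdha1, Pcdha5, Pcdha6, Pcdha7, Pcdha8, Pcdha9 or Pcdha10. All alternate Pcdha signals lay below the median of all peaks, which was 47 in replicate 1 and 39 in replicate 2.

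Of the 5 C-type members, 4 or 80% were open in both libraries, beside 68.1% of all genes. Pcdhgc3 and Pcdhgc4 held the strongest member peaks. Pcdhgc3 (start at chr18:37806364) had signals of 119 and 128 in replicates 1 and 2, at percentiles 97.6 and 99.1. It was the only member above the median of all genes with a promoter peak, which was 107 and 108. Pcdhgc4 (start at chr18:37815079) followed with 100 and 95, at percentiles 92.7 and 92.2.

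The C-type members of Pcdha were weaker and alike in both libraries. Pcdhac1 (start at chr18:37090013) had signals of 64 and 67, at percentiles 71.7 and 80.0. Pcdhac2 (start at chr18:37143503) had signals of 59 and 52, at percentiles 66.8 and 67.7. Pcdhac2, Pcdhgc3 and Pcdhgc4 had more than 1 peak near their starts: Pcdhgc3 had 3 in each library, Pcdhgc4 had 3 and 4, and Pcdhac2 had 2 and 3. Flanking Pcdhgc3, a peak centred at −874 bp and −894 bp from the start (negative values are upstream) had signals of 67 and 44, and a peak centred at 574 bp had signals of 84 and 74.

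Pcdhgc5 (start at chr18:37819513), the last member of the locus, had no peak within 1 kb of a start in either library. Shared peaks lay beyond it, inside the gene, at distances of 3016, 3256, 4936 and 5346 bp from its nearest start. The nearest of them, at chr18:37822596-37822745, had signals of 58 and 69. The annotated coding variable exon of Pcdhgc5 ends at 37822134, upstream of these peaks, and a longer annotated transcript runs through them without splicing. The farthest of the 4 is the peak at the first constant exon described below.

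The open C-type members also had the widest hotspots. The hotspots at the 4 open C-type members were 1016.5 bp wide at the median in replicate 1 and 1236.5 bp in replicate 2. Those at the other members with one were 175.5 and 186 bp wide. The −log10 q value of hotspots runs up to 6 and then takes the value 100, which was read as a ceiling. It was reached at 11 of 57 members in replicate 1 and 8 in replicate 2, against 62.6% and 63.3% of all protein-coding genes. All 4 open C-type members were among them in both libraries.

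Pcdhb promoter peaks were present at part of the row and were weak. A peak was called at 13 of 22 members in replicate 1 and 12 in replicate 2, with 9 shared. All 13 and all 12 lay below the median signal of their list. In comparison, 6.73% and 6.19% of genes with a promoter peak had their strongest peak below that median. The Pcdhb median was 25 in replicate 1 and 19 in replicate 2.

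Pcdhb3 (start at chr18:37300799) had the same signal of 36 in both libraries, at percentiles 28.4 and 45.5, and had the highest mean percentile of the cluster over both libraries, 36.9. Pcdhb8 (start at chr18:37355121) had 44 in replicate 1, the highest there, and 14 in replicate 2, the widest gap between the libraries among Pcdhb members with a shared peak. Pcdhb17 (start at chr18:37484795) had 32 and 22. The other 6 shared members, Pcdhb5, Pcdhb10, Pcdhb14, Pcdhb16, Pcdhb20 and Pcdhb21, had signals from 15 to 30 in replicate 1 and from 15 to 19 in replicate 2.

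The other Pcdhb members had a peak in 1 library or none. A peak in replicate 1 only was found at Pcdhb2 with a signal of 20, Pcdhb6 with 34, Pcdhb13 with 20 and Pcdhb22 with 23. In replicate 2 only, Pcdhb1 and Pcdhb11 each had a signal of 19 and Pcdhb15 had 15. No peak was called at Pcdhb4, Pcdhb7, Pcdhb9, Pcdhb12, Pcdhb18 or Pcdhb19. Members with and without a peak were interspersed along the row, and neighbours such as Pcdhb17 and Pcdhb18 fell in different classes.

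The Pcdhg A-type and B-type members formed the most continuous row of open promoters. Of 12 A-type members, 11 had a peak in each library and 10 a shared one. Pcdhga1 had a peak of signal 31 in replicate 1 only and Pcdhga9 a peak of 33 in replicate 2 only, so every A-type member had a peak in at least 1 library. Of 6 B-type members, Pcdhgb4, Pcdhgb5, Pcdhgb6 and Pcdhgb7 had shared peaks, with signals from 38 to 65 in replicate 1 and from 30 to 52 in replicate 2. Pcdhgb1 and Pcdhgb2, the first B-type members of the row, had none in either library. Shared peaks thus marked 83.3% of A-type and 66.7% of B-type members. Of all protein-coding genes 68.1% had one, and of the other genes of chromosome 18 81.6%, so these shares are not unusual for promoters.

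Pcdhga12 (start at chr18:37765580), the last A-type member before the C-type members, had signals of 69 and 72, at percentiles 75.9 and 83.2. It was the strongest member that is not a C-type. The A-type median was 41 and 33 and the B-type median 51.5 and 41, both close to the median of all peaks and below that of all genes with a promoter peak. Spearman's rho between signal and distance along the array was 0.395 in replicate 1 and 0.667 in replicate 2 over the 15 A-type and B-type members with a peak in each. The points share a library and differ in base composition, and rho is given as a description. Pcdhgb8, annotated as a polymorphic pseudogene and so not a member, lies between Pcdhga11 and Pcdhga12 and had peaks of 38 and 43 in replicate 1 and 31 and 49 in replicate 2 near its start.

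**Figure D2:**
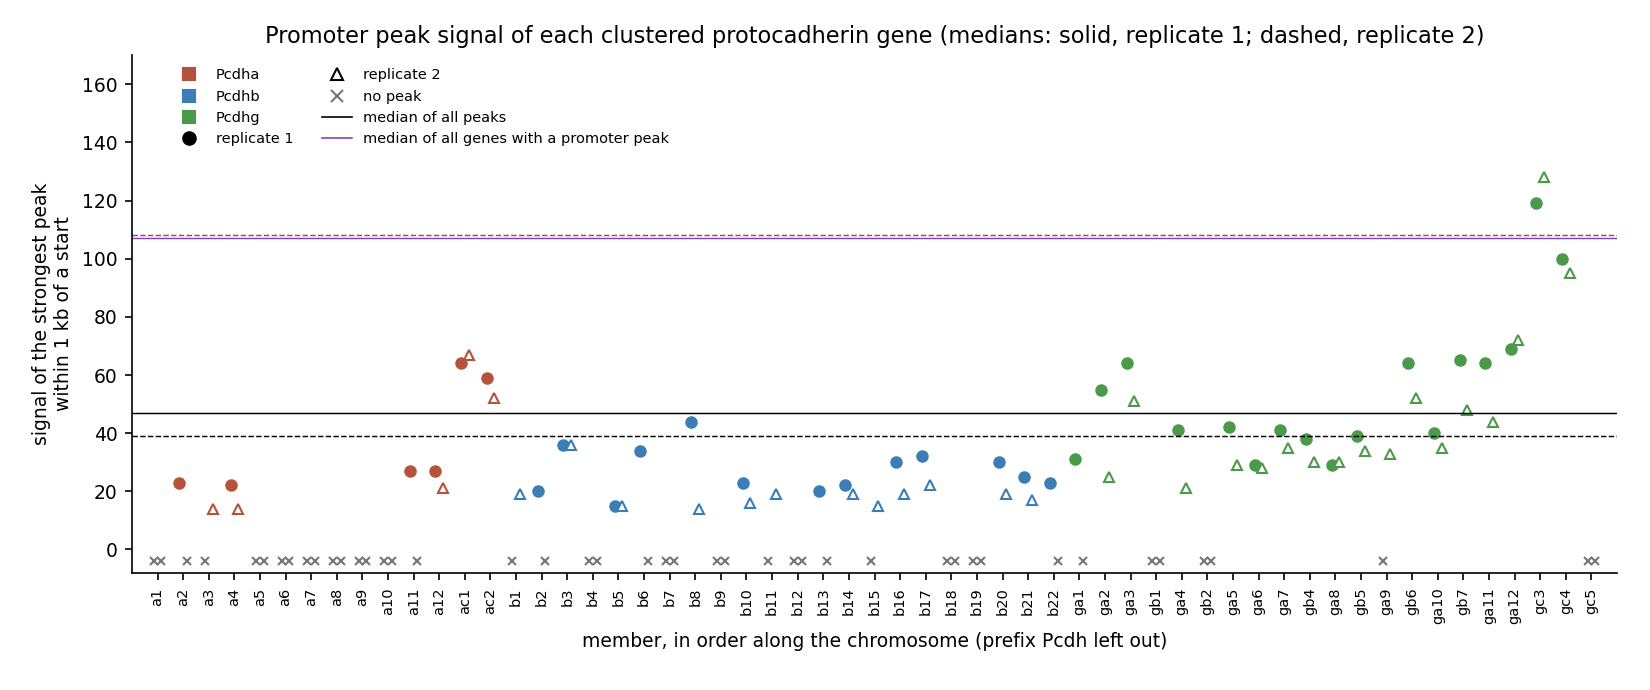
Signal of the strongest peak within 1 kb of a start (y axis, deposited units) for each member in chromosomal order, filled circles for replicate 1 and open triangles for replicate 2. Crosses below 0 mark members with no peak, and horizontal lines give the medians of all peaks (47 and 39) and of all genes with a promoter peak (107 and 108). Pcdhgc3 alone exceeds the latter, and all Pcdhb points lie below the former in their own library.

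Members with a peak in 1 library only had weak peaks. Their 12 signals ran from 14 to 34, at percentiles from 1.15 to 39.5 of their own list. They were spread over Pcdha with 3, Pcdhb with 7 and Pcdhg with 2, and none was a C-type member. Read depth and the calling threshold of the libraries are unknown, and their part in this class was not tested. Among the 29 members with a shared peak, the order of signals was alike in both libraries, with Spearman's rho of 0.823, and 0.736 over the 25 that are not C-type members. The signal was lower in replicate 2 at 23 of these 29 members. The percentile was lower in replicate 2 at 15 of 29, and the median over all peaks was also lower in that library.

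Most member peaks sat close to an annotated start, and those of Pcdha4, Pcdha12 and Pcdhac2 lay farthest downstream. Distances are to the nearest annotated start, which at Pcdhgc4, Pcdhga12 and Pcdhb22 was an internal start. Measured from the 5′ end of these genes, their strongest peaks lay farther away. The centre of the strongest peak lay at a median of −24.5 bp in replicate 1 and −20 bp in replicate 2, where the medians over all genes were −40 and −35 bp. It was within 100 bp of a start for 77.8% and 82.4% of members with a peak, against 63.9% and 65.9% of all such genes. Pcdhb17 at 135 and 155 bp and Pcdhga12 at 157 and 137 bp lay beyond that distance downstream in both libraries. At Pcdha4 and Pcdha12, the only alternate Pcdha members with a shared peak, the peak centre was instead 575 and 555 bp, and 561 bp in both libraries, downstream of the start. There it lay inside the variable exon. Pcdha12 had a second, weaker peak in replicate 2, centred at −19 bp with a signal of 16. The peaks of Pcdha2, Pcdha3 and Pcdha11, seen in 1 library each, were centred at −55, −55 and −2 bp. Pcdhac2 also had its strongest peak downstream, at 407 bp in replicate 1 and 267 bp in replicate 2, and these 2 intervals overlap.

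**Figure D3:**
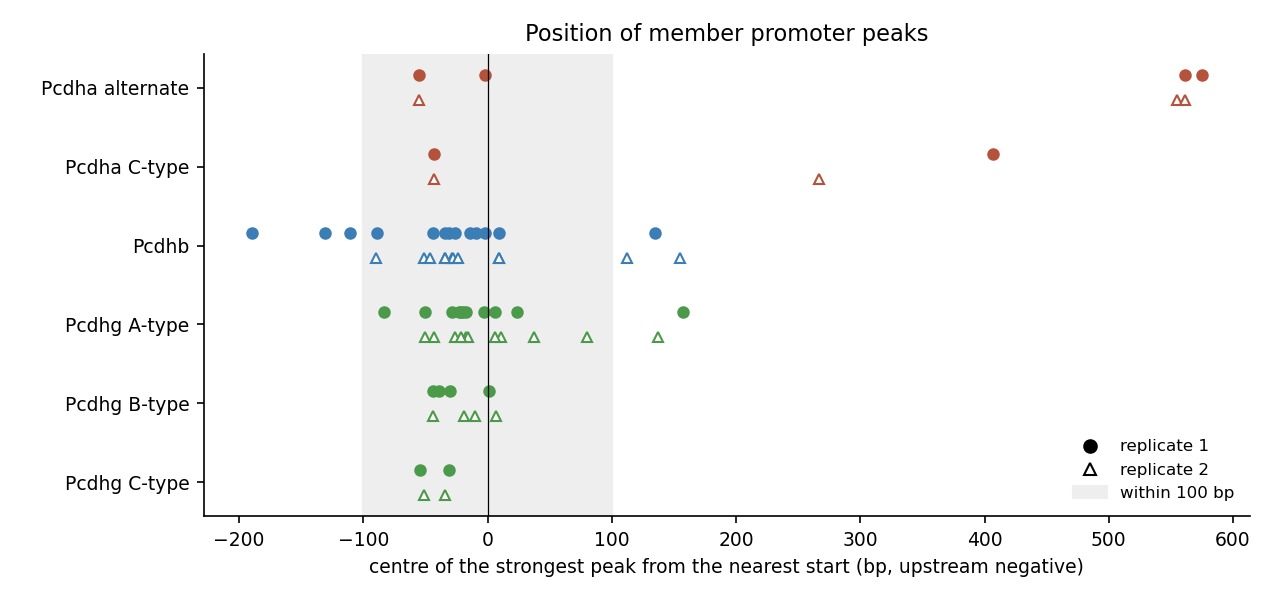
Distance in bp of the centre of the strongest promoter peak from the nearest start (x axis, upstream negative) for each member with a peak, by group, filled circles for replicate 1 and open triangles for replicate 2. The grey band marks 100 bp to either side; the alternate Pcdha points at 555 to 575 bp belong to Pcdha4 and Pcdha12.

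The CTCF consensus word was searched on both strands of the reference within 1 kb of each 5′ end. It was present at 6 of 57 members, against 1.72% of all protein-coding genes. All 6 were alternate Pcdha members: Pcdha1, Pcdha4, Pcdha6, Pcdha7, Pcdha8 and Pcdha12. In each, the word was on the sense strand, with its centre between 543 and 587 bp downstream of the start, inside the variable exon. It lay inside the shared peaks of Pcdha4 and Pcdha12, and no peak of either library covered it at the other 4. Of all peaks, 4.01% in replicate 1 and 3.93% in replicate 2 held the word. A shorter word, the last 9 letters of the consensus, was found within 1 kb of 13 of 57 members, against 33.8% of all protein-coding genes. A match describes the reference letters and is no measurement of CTCF binding, and members without a match may hold a site that differs from the word.

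The median member promoter was lower in GC than the median gene and alike in CpG content. From 250 bases before to 50 after the start, GC was 39.7% at the median member and 55% at the median gene. The observed over expected CpG ratio was 0.52 at the median member and 0.52 at the median gene. The C-type members had a median GC of 54.7%. The median CpG ratio was 0.52 for members with a shared peak and 0.63 for the 16 with none. Among other genes with a CpG ratio in the range of the middle 50% of members, 87.1% of 5193 had a shared peak. Among those with both CpG and GC in the members' middle range, 61.7% of 227 did.

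Parts of the member promoters recur elsewhere in the genome as exact 32-mers. Whether a read from there fits several places depends on its length, which was not used here. The share of 32-mers within 500 bp of the start that occur once on the named chromosomes was below 90% at 20 members and 90% or more at 37. The 20 were all 12 alternate Pcdha members, with 71.5% to 88.9%, 4 Pcdhb members and 4 Pcdhg B-type members. A shared peak was found at 6 of these 20, or 30%, and at 23 of the 37, or 62.2%, and no peak in either library at 10 of the 20 and 6 of the 37. How the authors placed reads that fit several places is not given in the sources used here. Its part in the Pcdha promoters without a called peak was not tested. Within the B-type members the order was the other way round. Pcdhgb4, Pcdhgb5, Pcdhgb6 and Pcdhgb7, with 70.4%, 78.1%, 80.7% and 81.0% unique 32-mers, had shared peaks, while Pcdhgb1 and Pcdhgb2, with 100%, had none. Pcdhgc5, also without a promoter peak, had 100% unique 32-mers.

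**Figure D4:**
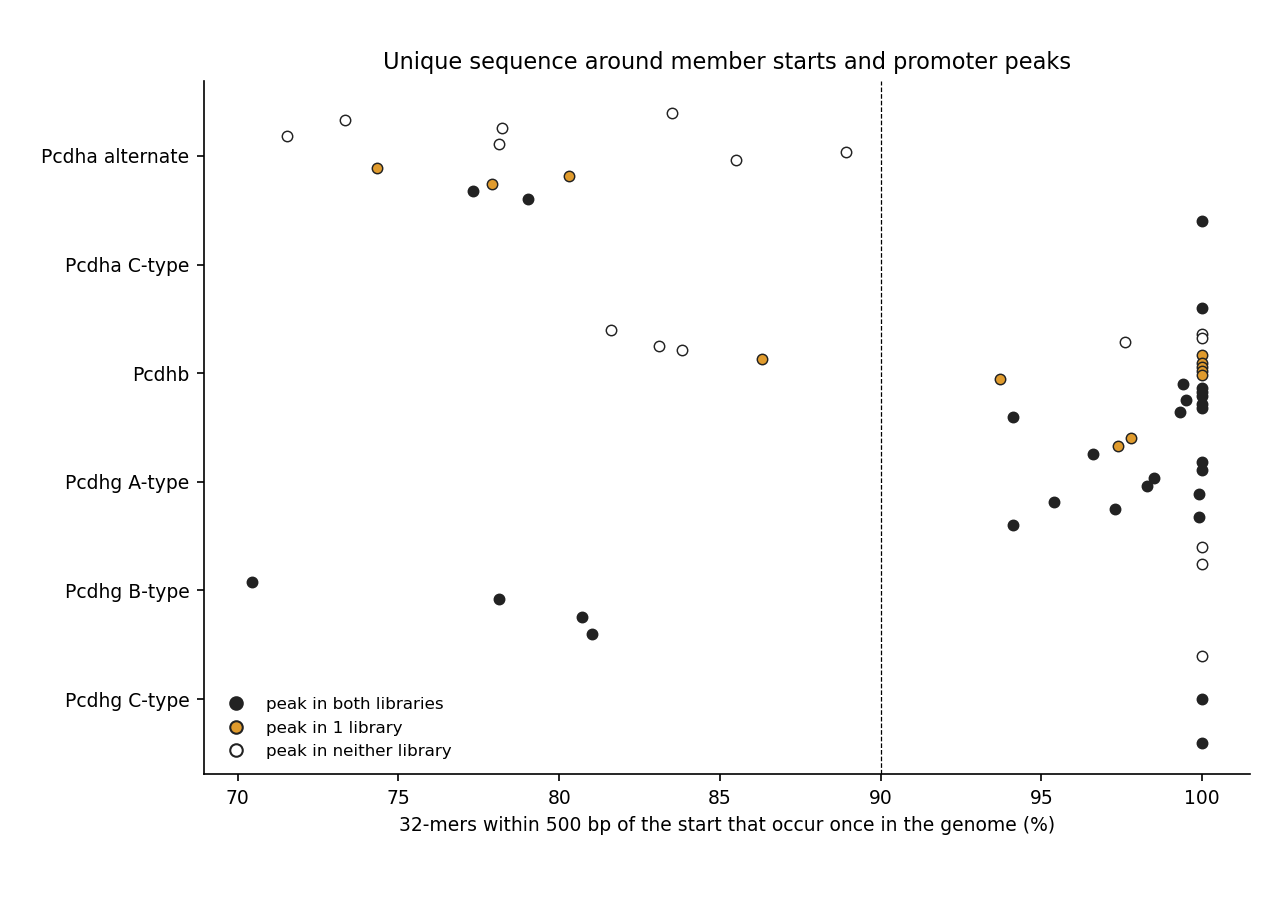
Percentage of 32-mers within 500 bp of the start that occur once on the named chromosomes of the genome (x axis) for each member by group, with black, orange and white points for a peak in both, 1 or neither library and a dashed line at 90%. Vertical spread within a group only separates points. All 12 alternate Pcdha members lie left of the line, as do the 4 open B-type members.

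The constant exons, which are shared by the Pcdha and by the Pcdhg members, had open sites at or near them in both clusters. No Pcdha constant exon overlapped peaks of both libraries. A shared peak lay just before the second (chr18:37159265-37159353), with signals of 81 and 77, its centre at −195 and −175 bp from the exon's first base. Another lay at the beginning of the third (chr18:37184946-37187657), with signals of 57 and 51, its centre at −76 and −36 bp, and reached into the exon in replicate 2 only. The first Pcdha constant exon had no peak within 1 kb.

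In Pcdhg, the first constant exon (chr18:37825021-37825079) overlapped a shared peak with signals of 79 and 85, and the third (chr18:37839903-37841873) overlapped one with 92 and 75. The second (chr18:37833265-37833353) had no peak within 1 kb. Shared peaks also lay 357 and 337 bp past the end of the third exon, with signals of 110 and 111, and 857 and 877 bp past it, with 93 and 89. The signals of these shared peaks at or near constant exons were higher than that of any Pcdhb promoter peak of the same library.

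Peak density differed along the locus. The 911.69 kb from the first to the last member base held 75 and 77 peaks in replicates 1 and 2, or 8.23 and 8.45 per 100 kb. The named chromosomes as a whole held 6.40 and 6.14 per 100 kb, and chromosome 18 held 6.83 and 6.49. The alternate Pcdha array held 4 peaks in each library, or 2.50 per 100 kb, and the Pcdhb array 13 and 12, or 4.99 and 4.61. In these 2 arrays 0 peaks lay more than 1 kb from a member start. The Pcdhg A-type and B-type array held 20 and 24 peaks, or 13.8 and 16.6 per 100 kb. The densest stretch was the 19.7 kb from Pcdhgc3 to the first Pcdhg constant exon, with 12 and 17 peaks, or 61.0 and 86.5 per 100 kb. The Pcdhg constant exons followed with 47.5 and 29.7 per 100 kb. The other library had an overlapping peak for 77.3% of cluster peaks of replicate 1 and for 75.3% of those of replicate 2, beside 69.8% and 73.1% over the named chromosomes.

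**Figure D5:**
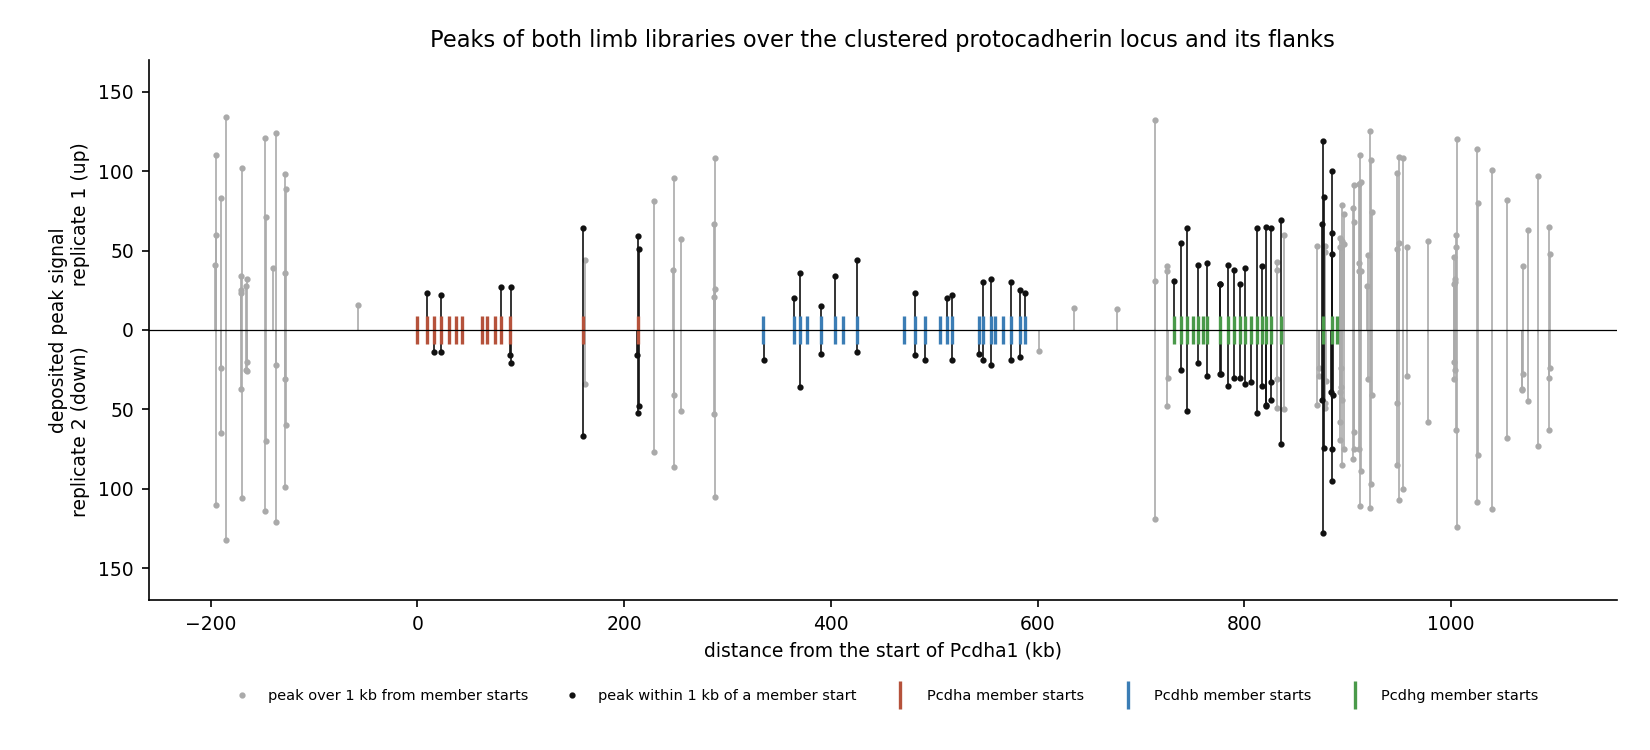
Deposited signal of each peak (replicate 1 upward, replicate 2 downward) against distance in kb from the start of Pcdha1, with coloured ticks for member starts, black stems for peaks within 1 kb of a member start and grey stems for the others. Between the first Pcdha and the last Pcdhb start, stems are few and short apart from a group between Pcdhac1 and Pcdhb1. Stems crowd at the Pcdhg end and are frequent in the downstream flank. In the upstream flank they lie beyond −127 kb, apart from a replicate 1 stem of signal 16 at −57.8 kb.

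Outside 1 kb of member starts, 61 shared regions lay in the clusters and 200 kb to each side. The 5 strongest all lay outside member genes. The strongest, at chr18:36744516-36744665 upstream of the clusters, had signals of 134 and 132 and covered the starts of Ndufa2, a subunit of respiratory complex I, and Ik. The second, at chr18:37644156-37644325 between Pcdhb and Pcdhg, had 132 and 119 and lay at the start of Taf7, a subunit of the general transcription factor TFIID. The third, at chr18:36793776-36793925, had 124 and 121 at the start of Zmat2. The fourth, at chr18:37935476-37935645, had 120 and 124 near a start of Diaph1, a formin that nucleates actin filaments. The fifth, at chr18:37852176-37852325 inside Diaph1, had 125 and 112. It lay 1157 bp from an annotated Diaph1 start and 10.4 kb past the end of Pcdhg.

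Within the clusters, several intergenic and intronic regions were stronger than most member promoters. They were picked after their values had been seen. The region at chr18:37218276-37218425, 30.7 kb past the end of Pcdha and before Pcdhb, had signals of 108 and 105. Beside it, chr18:37217396-37217565 had 67 and 53 and held the CTCF word. A region in the intron before the third Pcdha constant exon, chr18:37178416-37178585, had 96 and 86. In the intron before the third Pcdhg constant exon, chr18:37836416-37836585 had 91 and 75 and chr18:37835636-37835845 had 77 and 81.

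Downstream of Pcdhg the flank was also dense, with 31 and 29 peaks in 200 kb, or 15.5 and 14.5 per 100 kb. Many lay inside Diaph1. Among them, chr18:37880236-37880385, 38.4 kb past the end of Pcdhg, had signals of 109 and 107, and chr18:37883576-37883745, 41.8 kb past it, had 108 and 100 and held the CTCF word. These too were picked after their values had been seen. The 200 kb upstream of Pcdha1 held 19 and 16 peaks, or 9.55 and 8.04 per 100 kb.

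Related genes outside the clusters nearly all had an open promoter. The 12 non-clustered protocadherins, single genes with a promoter each, all had a shared promoter peak. Their median signal was 90.5 in replicate 1 and 93.5 in replicate 2, where the members' medians were 35 and 28.5. The lowest was Pcdh12, a protocadherin of endothelial cells, with 42 and 23. The highest were Pcdh17 with 119 and 122 and Pcdh18 with 118 and 129, at the level of Pcdhgc3. Of 20 cadherins 19 had a shared peak, with medians of 72 and 68, and the exception was Cdh5 of endothelial cells.

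The 15 genes listed as regulators of clustered protocadherin choice, among them Ctcf, the cohesin subunit Rad21, the chromatin protein Smchd1 and the DNA methyltransferase Dnmt3b, all had a shared promoter peak, with medians of 111 and 117. Of 18 other protein-coding genes with a start in the locus or its flanks, 15 had a shared peak, with medians of 114 and 113. The 3 without were Slc25a2, which lies in the locus, and the read-through genes Gm37013 and Gm37388, which start inside Pcdha. The shared peak of a further read-through gene, Gm42416, was that of Pcdha4 with 22 and 14. These shares stand beside the 68.1% of all genes and were not tested against each other.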

How the data were processed

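DNase-seq peaks and hotspots of 2 limb libraries were used as deposited. Per the deposited file descriptions, the authors called both on the mm10 alignment of each library alone. Aligner, caller, settings and the treatment of reads that fit several places were not given in the sources used here. Peak signal is the authors' own value of unstated scaling, a whole number from 2 to 149 on the named chromosomes (9557 and 13692 written with a decimal), and was ranked only within its list. The −log10 q value of hotspots is the authors' too. For replicate 2 the labels list 2 sequencers, and for replicate 1 they list no sequencer.

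The 21 named chromosomes of GRCm38, all annotated transcript starts of GENCODE M21 and an overlap of at least 1 bp were used, with a window of 1 kb. A symbol that GENCODE M21 gives to 2 genes, Pcdha11, was resolved with RefSeq, which calls the upstream one Pcdha10. Constant exons are those in transcripts of at least 50% of the members of Pcdha or Pcdhg. Unique 32-mers were counted over both strands of the 21 named chromosomes, so copies on other sequences were not seen. The overlap, offset and word steps were tested on simulated data. The members and lists were chosen with earlier results of these data known. Named genes were the C-type members, the 3 members of each cluster with the highest mean percentile, all members with a peak in 1 or neither library and the 5 strongest shared regions away from member starts; others are said to be picked later or are the rest of a counted set. Alternatives changed the window, starts, peak threshold, region type, overlap and word, and left out each replicate. Peaks on other sequences were left out. The work ran in Python 3.11.15 with Numba 0.67.0, SciPy 1.17.1 and NumPy 2.4.6, and plots were drawn with Matplotlib 3.10.9.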

Additional observations from a re-analysis of the deposited data

How the results depend on the processing

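Of 58 alternatives over the results in counts, signal and position, 45 stayed within 1.5 times the count or within the spread between libraries or the interval of a share, 13 moved further and 0 reversed. The count of 29 members with a shared promoter peak ran from 28 to 29 over other windows, start sets, hotspots and an added setting, chosen after seeing the data, without peaks written with a decimal. It fell to 9 with peaks above the median signal only. With 1 library left out it was 34 to 36. The count with hotspots at their ceiling was 7. The median over members of the mean percentile, 36.0, became 25.9598 to 29.2297 with 1 library left out, since members with a peak only in the library kept then enter. The median position ran from −24.5 to −20 bp in the same settings. Shared peaks at constant exons, 2 by overlap, were 7 within 1 kb and 4 as hotspots, and 3 to 4 with 1 library left out. The 94 shared regions of the locus and flanks became 60 with peaks above the median signal. The share of cluster peaks found in the other library then rose to 91.4% of replicate 1 and 89.2% of replicate 2. The CTCF word was at 0 members within 500 bp and at 13 in its short form, against 6. Counts for the related lists were within 1.5 times under each alternative run. No paired analysis was possible because there is 1 group. Unknown depth limits every statement on a closed promoter: no peak was called there.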
